A study of Homo sapiens with 28 samples.

Results

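The comparison described here is that of H1944 cells kept in TGF-β1 with naive H1944 cells, which takes 9 of the 28 RNA libraries of the series. H1944 is an established human lung adenocarcinoma line. The libraries were chosen by their names: 3 libraries of the high and 3 of the low mVenus gate under TGF-β1, taken as the mean of both gates, against 3 libraries of naive cells. The treated cells had 5 ng/ml TGF-β1 for 11 days and were then parted by flow sorting. The naive cells were neither treated nor sorted, so an effect of TGF-β1 and an effect of sorting cannot be told apart in this comparison. All H1944 cells, naive ones included, carried MGT#1-mVenus, a reporter that drives the yellow fluorescent protein mVenus. The series also holds H1944 cells under 5 µM GSK126, an inhibitor of the histone methyltransferase EZH2, sorted in the same way after 11 days, and the same treatments in A549, another lung adenocarcinoma line. Replicates carry the letters A, B and C, and no source says whether these are separate cultures. Nor is it stated whether the high and low gates of a letter come from 1 culture. The p-values therefore measure the spread between these libraries, which may be technical. For the same reason the treated libraries of both gates may not all be independent replicates.

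TGF-β1 is secreted in a latent complex, and once freed it joins a type II and a type I receptor kinase, which phosphorylate SMAD2 and SMAD3. These enter the nucleus with SMAD4 and act on target genes, among them inhibitors that close a feedback loop. In epithelial cells, carcinoma cells of the lung included, lasting exposure is known for epithelial-mesenchymal transition, in which cells give up E-cadherin junctions, turn on transcription factors of the SNAI and ZEB families and secrete matrix.

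Libraries held from 1660148 to 3273676 counts in TGF-β1 cells, and 2378903, 2404464 and 13280592 counts in naive cells, so naive library C was 5.58 times as deep as naive library A. The mitochondrially encoded genes took 5.01 ± 0.478% of counts in TGF-β1 cells and 6.95 ± 0.414% in naive cells (SD, n = 6 and 3). Reads over 374 olfactory receptor genes, which lung cells are not known to use, summed to 3.62 to 62.6 CPM (counts scaled to a common library total) in TGF-β1 cells, highest in low gate library B, and to 4.16 to 10.9 CPM in naive cells. That is a mean per gene of at most 0.168 CPM in any of these libraries, and single genes can lie above it. Only olfactory genes with a mean under 5 CPM in every group were summed. Levels well below 1 CPM are thus close to this background. The part of these differences in the results was not tested. The mVenus transcript measured 2263 to 2428 CPM in the high gate, 769 to 831 CPM in the low gate and 327 to 394 CPM in naive cells. Levels below are CPM of each library's total. For a gene given in full, its lowest, median and highest level in the 6 TGF-β1 libraries stand first, and naive libraries A, B and C follow. Fold changes are TGF-β1 over naive on the log2 scale, from edgeR's quasi-likelihood test over all genes. The ± after a fold change or log2 difference is an approximate standard error. It is the size of the change divided by the square root of the test's F value. Where an arm holds few counts, it can understate the uncertainty. The words "rose" and "fell" are used for a Benjamini-Hochberg adjusted p under 0.05.

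TGF-β1 cells and naive cells differed in most of the genes measured. Of 13621 genes tested 8677 passed (63.7%), 4371 higher in TGF-β1 cells (32.1%) and 4306 lower (31.6%), and the median log2 fold change of all tested genes was -0.01. The levels of 7679 genes (56.4%) did not overlap between the 6 TGF-β1 and the 3 naive libraries. A change of at least 2-fold was seen in 2231 higher and 1856 lower genes, and of at least 64-fold in 116 higher and 40 lower genes. All 8677 moved the same way in both gates, and 7041 passed when each gate alone was set against naive cells. Both gates entered the choice of these genes and share the naive libraries, so this is no separate check of the result. Genes at least 2-fold higher took 26.2% of the counts of TGF-β1 cells and 6.23% of those of naive cells, and genes at least 2-fold lower took 6.49% in TGF-β1 cells and 21.4% in naive cells. With so many genes past the test, the number of list members past it is to be read against these shares.

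**Figure D1:**
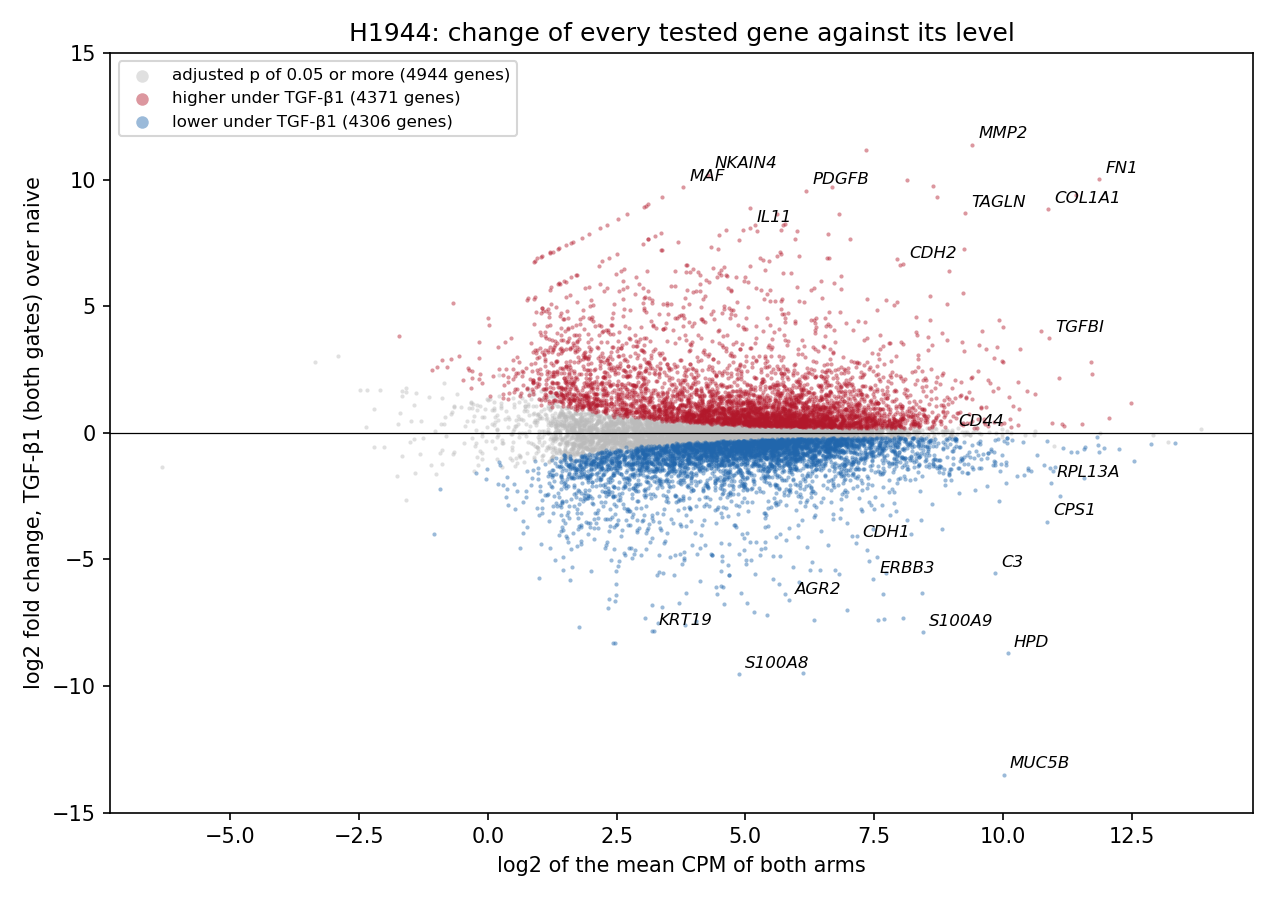
Log2 fold change of TGF-β1 over naive H1944 cells (y axis) against the log2 of the average of both arm means in CPM (x axis). Each tested gene is 1 point. The 4371 genes that passed higher and the 4306 that passed lower spread over the whole range of levels, with named genes at both ends.

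The genes furthest apart were near 0 in 1 group and abundant in the other. MMP2, gelatinase A, a protease that cuts basement membrane collagen (chr16:55389700-55506691 in GRCh38, plus strand), measured 1149.6, 1338 and 1609 CPM in TGF-β1 cells, against 0, 0.832 and 0.527 CPM in naive cells (log2 fold change 11.38 ± 0.18, edgeR adjusted p = 4.2e-32). FN1, fibronectin, measured 6442, 7560.2 and 8623 CPM in TGF-β1 cells, against 6.31, 8.32 and 7.61 CPM in naive cells (log2 fold change 10.02 ± 0.13, edgeR adjusted p = 6.9e-35). In both of these genes every TGF-β1 library was far above every naive library. NKAIN4, MAF, a bZIP transcription factor, TNFAIP6, a hyaluronan-binding protein, and C5orf46 had 0 counts in the naive libraries. Set against a floor of 3 counts over that arm they were at least 236-fold higher, at least 165-fold higher, at least 127-fold higher and at least 99.1-fold higher. In all, 17 genes had 0 naive counts and a mean of at least 5 CPM in TGF-β1 cells, and 60 had at most 3 naive counts. At the other end, MUC5B, a gel-forming airway mucin (chr11:1223066-1262172, plus strand), measured 0, 0 and 0.416 CPM in TGF-β1 cells, against 2050.1, 1886 and 2268 CPM in naive cells. Its 2 counts in the 6 TGF-β1 libraries stand against 39532 in the naive ones, 16020.2-fold lower in TGF-β1 cells (exact 95% counting interval 4435 to 132289). HPD, an enzyme of tyrosine breakdown, measured 4.32, 4.85 and 5.50 CPM in TGF-β1 cells, against 2172, 2262 and 2098 CPM in naive cells (log2 fold change -8.72 ± 0.12, edgeR adjusted p = 2.3e-34). S100A8, a subunit of calprotectin, had 1 count in TGF-β1 cells and 1082 in naive cells, 877-fold lower in TGF-β1 cells (exact 95% counting interval 157 to 34669). SLC51B, a subunit of the organic solute transporter, was 0.618 ± 1.19 CPM in TGF-β1 cells and 138 ± 14.6 CPM in naive cells (SD, n = 6 and 3). These intervals and floors cover counting error only and leave out the spread between libraries. Reads copied by PCR count as separate reads, so the intervals can be too narrow even for counting error. Both pool the counts of an arm, and naive library C holds 13280592 of the 18063959 naive counts, so their naive side rests mostly on that library.

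Ligands of the TGF-β family were mostly higher in TGF-β1 cells, TGFB1 included. Of 9 tested, 7 were higher and 0 lower, with a median log2 fold change of 4.39. TGFB1 itself (chr19:41301587-41353911, minus strand) measured 96.8, 101 and 122 CPM in TGF-β1 cells, against 5.46, 3.33 and 5.57 CPM in naive cells (log2 fold change 4.39 ± 0.16, edgeR adjusted p = 5.8e-22). TGFB2 measured 43.4, 49.5 and 56.2 CPM in TGF-β1 cells, against 0.841, 1.25 and 0.904 CPM in naive cells (log2 fold change 5.74 ± 0.23, edgeR adjusted p = 4.3e-21). The lowest treated library lay far above the highest naive library for both. INHBA, the βA subunit of activin, measured 63.2, 73.6 and 77.6 CPM in TGF-β1 cells, against 0.841, 0 and 0.151 CPM in naive cells (log2 fold change 8.19 ± 0.33, edgeR adjusted p = 3.7e-21). BMP2 and BMP6, bone morphogenetic proteins that signal through other SMADs, rose by 3.84 ± 0.22 and 6.25 ± 0.31 (edgeR adjusted p = 1.2e-16 and 1.1e-18). TGFB3 stood at 7.37 ± 1.005 CPM in TGF-β1 cells and 7.12 ± 1.096 CPM in naive cells, and GDF15 at 11.9 ± 2.03 CPM in TGF-β1 cells and 11.1 ± 1.57 CPM in naive cells (SD, n = 6 and 3); neither passed the test and their arms overlapped.

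All 11 receptors and co-receptors tested passed, 7 higher and 4 lower (median log2 fold change 0.60). TGFBR1, the type I receptor, measured 808, 846 and 878 CPM in TGF-β1 cells, against 50.4, 56.98 and 60.5 CPM in naive cells (log2 fold change 3.96 ± 0.13, edgeR adjusted p = 2.9e-23). TGFBR2, the type II receptor that binds the ligand, measured 97.2, 114 and 130.5 CPM in TGF-β1 cells, against 36.99, 48.2 and 41.5 CPM in naive cells (log2 fold change 1.52 ± 0.10, edgeR adjusted p = 1.2e-14). Neither gene had overlapping arms, and the type I receptor moved by more. BMPR2, the type II receptor for BMPs, rose by 3.02 ± 0.10 and ACVR1, a BMP and activin type I receptor, by 2.54 ± 0.14 (edgeR adjusted p = 1.5e-23 and 2.1e-17). TGFBR3, betaglycan, a co-receptor that presents TGF-β2, measured 4.82, 7.26 and 10.6 CPM in TGF-β1 cells, against 58.4, 54.5 and 48.5 CPM in naive cells (log2 fold change -2.73 ± 0.16, edgeR adjusted p = 7.8e-17). ACVR1B, the activin type I receptor ALK4, stood at 21.4 ± 3.04 CPM in TGF-β1 cells and 132 ± 4.50 CPM in naive cells (SD, n = 6 and 3) and fell (log2 fold change -2.55 ± 0.10, edgeR adjusted p = 6.6e-21). Receptors of the family thus moved both ways.

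Of 6 SMADs tested 1 was higher and 2 lower, with a median log2 fold change of -0.11. SMAD2 measured 286, 316 and 365 CPM in TGF-β1 cells, against 652, 623 and 671 CPM in naive cells (log2 fold change -0.96 ± 0.08, edgeR adjusted p = 6.0e-13). SMAD3 measured 174, 186 and 198 CPM in TGF-β1 cells, against 121, 118 and 118 CPM in naive cells (log2 fold change 0.71 ± 0.12, edgeR adjusted p = 2.1e-06). The 2 transducers of TGF-β thus moved in opposite directions, both without overlap between arms. SMAD4, their common partner, fell by 0.47 on the log2 scale (edgeR adjusted p = 7.4e-05), and SMAD1, SMAD5 and SMAD9, which serve BMP receptors, did not pass.

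Among inhibitors of the pathway 9 were higher and 4 lower of 17 tested, with a median log2 fold change of 1.18. PMEPA1, a membrane protein that holds back SMAD2 and SMAD3, measured 1141, 1169.8 and 1339.6 CPM in TGF-β1 cells, against 8.41, 8.73 and 7.83 CPM in naive cells (log2 fold change 7.28 ± 0.16, edgeR adjusted p = 3.7e-28). SMAD7, the inhibitory SMAD that sends the type I receptor for degradation, measured 113, 116 and 134 CPM in TGF-β1 cells, against 7.57, 6.24 and 5.27 CPM in naive cells (log2 fold change 4.41 ± 0.14, edgeR adjusted p = 1.4e-23). SKIL, which encodes the SMAD co-repressor SnoN, measured 648, 666 and 722 CPM in TGF-β1 cells, against 74.4, 61.1 and 79.1 CPM in naive cells (log2 fold change 3.29 ± 0.11, edgeR adjusted p = 5.5e-23). Arms were far apart for all 3. SMURF2, a ubiquitin ligase for receptors and SMADs, rose by 2.19 ± 0.11, and FSTL3, which binds activin, by 1.36 ± 0.09 (edgeR adjusted p = 1.0e-18 and 7.0e-15). Other secreted antagonists were lower: CHRD, chordin, stood at 3.62 ± 0.960 CPM in TGF-β1 cells and 22.8 ± 3.99 CPM in naive cells, FST, follistatin, at 29.6 ± 6.43 CPM in TGF-β1 cells and 59.4 ± 3.28 CPM in naive cells, and NOG, noggin, at 11.0 ± 2.49 CPM in TGF-β1 cells and 20.7 ± 2.96 CPM in naive cells (SD, n = 6 and 3), and these 3 fell. BAMBI, a decoy receptor, TGIF1, a co-repressor, and the antagonist GREM1 did not pass.

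The stretch before the start of SMAD7 and of BMPR2 is shown because both genes rose without overlap and both hold the 5-base SMAD element there. The sequences are the 250 bases upstream of the RefSeq start in GRCh38.p14, on the gene's strand, and capitals mark the element CAGAC, searched on both strands (CAGAC or GTCTG). SMAD7 (chr18:48950966-48951215, minus strand) has it 217 and 128 bases before the start, and BMPR2 (chr2:202376077-202376326, plus strand) 103 and 18 bases before it.
SMAD7: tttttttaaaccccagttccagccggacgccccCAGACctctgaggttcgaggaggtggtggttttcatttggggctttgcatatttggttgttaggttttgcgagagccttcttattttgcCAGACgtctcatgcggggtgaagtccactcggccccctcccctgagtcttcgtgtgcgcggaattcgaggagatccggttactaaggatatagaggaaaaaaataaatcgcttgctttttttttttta
BMPR2: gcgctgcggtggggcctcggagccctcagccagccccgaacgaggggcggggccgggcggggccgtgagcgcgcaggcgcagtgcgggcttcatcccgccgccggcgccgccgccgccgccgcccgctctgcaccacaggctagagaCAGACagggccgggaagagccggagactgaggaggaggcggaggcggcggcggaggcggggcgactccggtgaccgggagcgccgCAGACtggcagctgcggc
So short a motif is frequent. The shares that follow are over the whole stretch in the table, 250 bases before to 50 after each start, which is longer than the stretch printed. Over it the motif occurs in 44.95% of all 27305 promoters and in 42.26% of the promoters of 10387 tested genes that have one in the table. Among the lists it was in 8 of 14 promoters of the inhibitors, 4 of 11 of the receptors and 12 of 21 of the immediate targets. Lists described below that were mostly lower held it as well, in 8 of 10 promoters of epithelial membrane proteins and 9 of 14 of mucins. Of the transition factors, mostly higher, 1 of 12 promoters held it. The motif thus did not follow the direction of change. A match describes these letters and not binding.

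Latent TGF-β is stored in the matrix by its binding proteins and freed by integrins and proteases, and 8 were higher and 2 lower among 10 tested of this group (median 2.08). THBS1, thrombospondin 1, which activates the latent form, measured 1782, 1809.8 and 1961 CPM in TGF-β1 cells, against 83.7, 87.3 and 90.1 CPM in naive cells (log2 fold change 4.47 ± 0.11, edgeR adjusted p = 8.5e-27). ITGAV, the integrin αv chain that releases TGF-β with its partner chains, measured 1376, 1432 and 1532 CPM in TGF-β1 cells, against 94.6, 96.1 and 90.1 CPM in naive cells (log2 fold change 4.02 ± 0.10, edgeR adjusted p = 1.9e-26). LTBP2, which despite its name is known mainly as a microfibril protein, measured 257, 280.1 and 292 CPM in TGF-β1 cells, against 14.3, 13.31 and 13.6 CPM in naive cells (log2 fold change 4.40 ± 0.12, edgeR adjusted p = 1.4e-25). No arms overlapped in these 3. Among the partner chains of αv that activate TGF-β, ITGB6 rose by 2.27 ± 0.11. ITGB8, also among them, stood at 2.19 ± 1.97 CPM in TGF-β1 cells and 24.4 ± 2.43 CPM in naive cells (SD, n = 6 and 3) and fell (log2 fold change -3.60 ± 0.27, edgeR adjusted p = 1.1e-13). FBN1, fibrillin 1, the microfibril to which latent complexes attach, fell to 114, 119 and 147 CPM in TGF-β1 cells, against 344, 343 and 359 CPM in naive cells (log2 fold change -1.42 ± 0.08, edgeR adjusted p = 2.2e-16).

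Known immediate targets of TGF-β in other epithelial cells were mostly higher: 25 were higher and 2 lower among 29 tested, with a median log2 fold change of 3.74. CCN2, connective tissue growth factor, measured 864, 984 and 1056 CPM in TGF-β1 cells, against 13.03, 12.9 and 11.4 CPM in naive cells (log2 fold change 6.41 ± 0.13, edgeR adjusted p = 2.1e-29). TGFBI, a secreted matrix protein named for its induction, measured 3409, 3516 and 3692 CPM in TGF-β1 cells, against 278, 287 and 267 CPM in naive cells (log2 fold change 3.74 ± 0.11, edgeR adjusted p = 2.7e-25). ADAM19, a membrane metalloproteinase, measured 755, 793 and 881 CPM in TGF-β1 cells, against 0.420, 0.416 and 1.13 CPM in naive cells (log2 fold change 9.76 ± 0.17, edgeR adjusted p = 1.7e-31). Each of these arms stood apart from the other by more than the spread within them. TAGLN, the actin-binding protein SM22, rose by 8.68 ± 0.20, ANGPTL4, a lipase inhibitor, by 9.70 ± 0.26, and IL11, a cytokine of the IL-6 family, by 8.07 ± 0.29. PDGFB, a platelet-derived growth factor chain with 3 naive counts, was 873-fold higher in TGF-β1 cells (exact 95% counting interval 298 to 4237). CDKN1A, the cell-cycle inhibitor p21, stood at 253 ± 28.3 CPM in TGF-β1 cells and 50.8 ± 7.17 CPM in naive cells (SD, n = 6 and 3; log2 fold change 2.39 ± 0.10, edgeR adjusted p = 4.7e-20). The 2 that fell were ID1, a BMP target, at -1.29, and MYC, which TGF-β is known to repress, at -0.72 on the log2 scale (edgeR adjusted p = 3.9e-12 and 4.4e-08). ID2 and KLF10 did not pass.

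**Figure D2:**
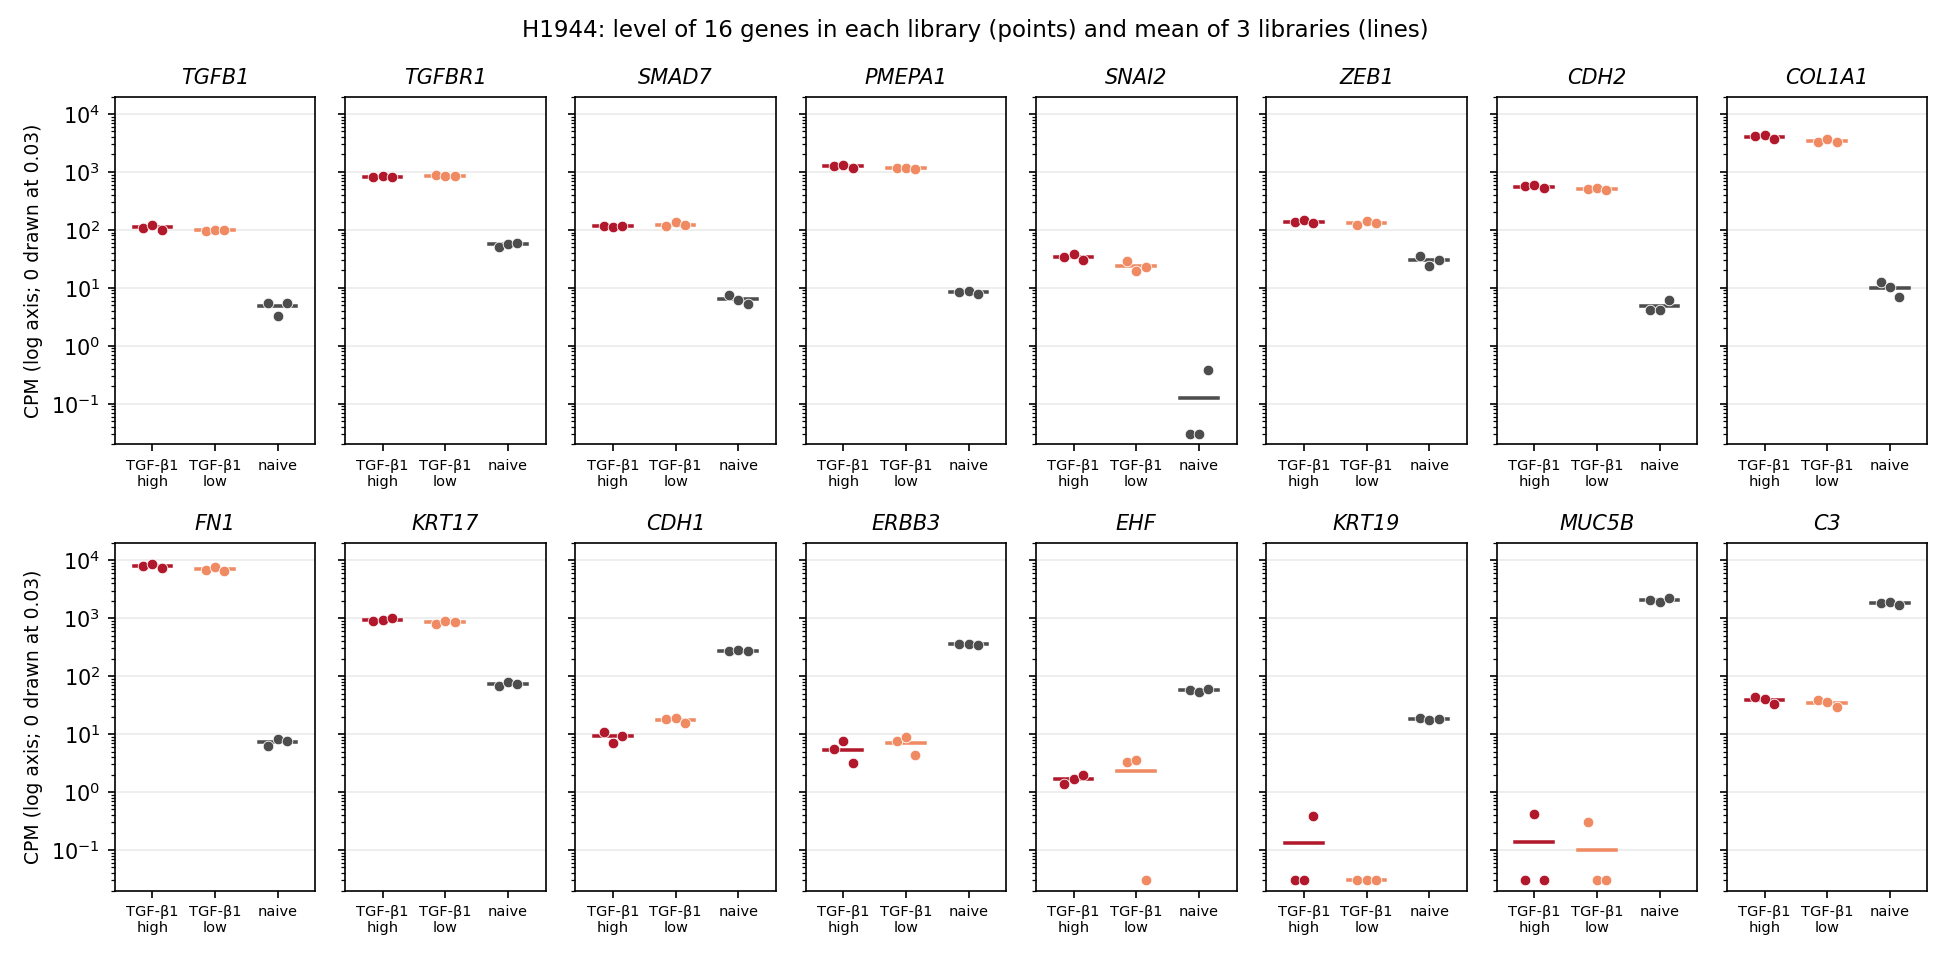
Level in CPM (y axis, log scale) of 16 genes in each H1944 library, with high gate, low gate and naive libraries from left to right. TGFB1, SMAD7, PMEPA1, CDH2 and COL1A1 are higher in every TGF-β1 library than in any naive one, and CDH1, ERBB3, EHF, KRT19, MUC5B and C3 are lower.

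Of the transcription factors that drive epithelial-mesenchymal transition, 14 were higher and 4 lower among 21 tested (median log2 fold change 1.46). SNAI2, Slug, a repressor of E-cadherin, measured 19.3, 29.8 and 38.7 CPM in TGF-β1 cells, against 0, 0 and 0.376 CPM in naive cells (log2 fold change 6.62 ± 0.36, edgeR adjusted p = 2.3e-17). ZEB1, another such repressor, measured 122, 134 and 150.3 CPM in TGF-β1 cells, against 34.9, 24.1 and 30.1 CPM in naive cells (log2 fold change 2.25 ± 0.12, edgeR adjusted p = 3.3e-17). ZEB2 measured 21.6, 30.1 and 36.7 CPM in TGF-β1 cells, against 8.41, 6.24 and 6.63 CPM in naive cells (log2 fold change 2.17 ± 0.24, edgeR adjusted p = 9.4e-10). All 3 were higher in each treated library than in any naive one. SNAI1, Snail, measured 7.46, 10.3 and 14.5 CPM in TGF-β1 cells, against 3.36, 7.49 and 2.79 CPM in naive cells, and it passed (log2 fold change 1.46 ± 0.33, edgeR adjusted p = 2.9e-04) although its lowest treated value lay below its highest naive one. SOX4, a factor TGF-β is known to induce, rose by 5.05 ± 0.12, ETS1 by 5.20 ± 0.22 and RUNX1 by 2.53 ± 0.12. TWIST1 had 2 counts in TGF-β1 cells and 2 in naive cells and did not pass, nor did TWIST2 (2.14 ± 1.58 CPM in TGF-β1 cells and 3.91 ± 1.598 CPM in naive cells, SD, n = 6 and 3) and HMGA2. FOXQ1 fell (log2 fold change -0.64 ± 0.15, edgeR adjusted p = 3.0e-04).

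Regulators that keep cells epithelial were mostly lower: 3 were higher and 12 lower among 17 tested, with a median log2 fold change of -1.32. EHF, an ETS factor of epithelia, measured 0, 1.81 and 3.61 CPM in TGF-β1 cells, against 58.0, 52.4 and 61.0 CPM in naive cells (log2 fold change -4.79 ± 0.22, edgeR adjusted p = 3.1e-19). ELF3, another epithelial ETS factor, measured 11.7, 19.6 and 22.3 CPM in TGF-β1 cells, against 129, 127 and 122 CPM in naive cells (log2 fold change -2.74 ± 0.12, edgeR adjusted p = 2.9e-20). ESRP1, which sets epithelial splicing, measured 1.81, 2.71 and 4.82 CPM in TGF-β1 cells, against 12.2, 9.57 and 9.86 CPM in naive cells (log2 fold change -1.81 ± 0.28, edgeR adjusted p = 1.3e-06). GRHL2, a factor that holds E-cadherin expression, stood at 1.94 ± 2.18 CPM in TGF-β1 cells and 7.49 ± 1.48 CPM in naive cells (SD, n = 6 and 3; log2 fold change -2.06 ± 0.50, edgeR adjusted p = 5.8e-04). No treated library reached the lowest naive library in these 4. SPDEF, a factor of mucous cells, had 3 counts in TGF-β1 cells and was 48.1-fold lower in TGF-β1 cells (exact 95% counting interval 16.2 to 235). KLF5 and the RNA-binding protein RBM47 fell by 1.32 and 1.64 on the log2 scale. The 3 that rose were TP63 (3.70 ± 0.38), GATA6 (3.01 ± 0.23) and TFCP2L1 (2.22 ± 0.37), and KLF4 did not pass. ELF3 is shown as a fallen gene whose promoter holds the E-box CACCTG (both strands searched, CACCTG or CAGGTG), which SNAI and ZEB factors bind; the 250 bases are chr1:202010337-202010586 (plus strand, RefSeq, GRCh38.p14) and the element, in capitals, lies 120 bases before the start.
ELF3: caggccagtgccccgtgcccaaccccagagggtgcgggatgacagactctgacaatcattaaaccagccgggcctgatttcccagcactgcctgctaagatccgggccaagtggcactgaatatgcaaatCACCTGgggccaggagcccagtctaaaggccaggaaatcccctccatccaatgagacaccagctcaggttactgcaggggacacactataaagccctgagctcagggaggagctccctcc
Over the same longer stretch, 250 bases before to 50 after the start, the E-box is in 20.6% of all promoters and in 17.77% of those of tested genes. It is in 3 of the 11 promoters of the epithelial regulators that the table holds. The printed ELF3 stretch also holds the SMAD element CAGAC, left in lower case.

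At the adherens junction the cadherins changed places. CDH1, E-cadherin (chr16:68737225-68835548, plus strand), measured 7.08, 13.1 and 18.7 CPM in TGF-β1 cells, against 267, 278 and 269 CPM in naive cells (log2 fold change -4.36 ± 0.11, edgeR adjusted p = 8.5e-27). CDH2, N-cadherin (chr18:27950966-28177446, minus strand), measured 483, 521 and 584 CPM in TGF-β1 cells, against 4.20, 4.16 and 6.17 CPM in naive cells (log2 fold change 6.65 ± 0.16, edgeR adjusted p = 2.2e-27). The lowest naive CDH1 level was above the highest treated one, and the order was the reverse for CDH2. In this group 10 were higher and 4 lower among 16 tested, with a median log2 fold change of 0.86. Of the catenins, which join cadherins at the junction, CTNNB1, β-catenin, rose by 0.96 ± 0.08 and CTNND1, p120, by 1.15 ± 0.08, and CTNND2, δ-catenin, did not pass. EPCAM, an epithelial adhesion molecule, measured 5.89, 10.2 and 16.9 CPM in TGF-β1 cells, against 82.0, 76.5 and 81.5 CPM in naive cells (log2 fold change -2.93 ± 0.16, edgeR adjusted p = 1.7e-17). CDH17, a cadherin of the gut, stood at 183 ± 13.6 CPM in TGF-β1 cells and 405 ± 11.96 CPM in naive cells (SD, n = 6 and 3) and fell, while NECTIN4 rose by 4.68 ± 0.25.

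Tight junction and polarity genes were mainly lower (4 were higher and 14 lower among 23 tested, with a median log2 fold change of -0.99). TJP3, the scaffold ZO-3, measured 0.392, 0.532 and 3.01 CPM in TGF-β1 cells, against 51.3, 51.6 and 48.0 CPM in naive cells (log2 fold change -5.60 ± 0.25, edgeR adjusted p = 8.8e-20). LSR, which places tricellular junctions, measured 2.36, 3.69 and 5.50 CPM in TGF-β1 cells, against 48.8, 57.4 and 49.8 CPM in naive cells (log2 fold change -3.64 ± 0.17, edgeR adjusted p = 2.6e-19). CGN, cingulin, fell by 2.92 and LLGL2, a polarity protein, by 2.31 on the log2 scale. Against them stood CLDN1, claudin 1, with 337, 363 and 402 CPM in TGF-β1 cells, against 34.0, 37.01 and 36.4 CPM in naive cells (log2 fold change 3.43 ± 0.12, edgeR adjusted p = 2.3e-22), and TJP1, ZO-1, which rose by 0.93 ± 0.08. Members of the same junction thus moved both ways. Desmosome and hemidesmosome genes were divided (10 were higher and 7 lower among 17 tested, with a median log2 fold change of 0.60). The desmosomal cadherin DSC2 rose by 3.67 ± 0.12, DSG2 by 1.75 ± 0.09 and JUP, plakoglobin, by 1.54 ± 0.10, while the plakophilins PKP2 and PKP3 fell by 2.63 and 1.43, and ITGB4, the integrin of hemidesmosomes, by 1.56.

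Among keratins, 4 were higher and 5 lower of 11 tested (median 0.50). KRT19, of simple epithelia, had 1 count in the 6 TGF-β1 libraries and 18.9, 17.5 and 18.1 CPM in the naive libraries, 265-fold lower in TGF-β1 cells (exact 95% counting interval 47.2 to 10499.8). The pair KRT8 and KRT18, which form filaments together, stood at 1130.5 ± 52.5 CPM in TGF-β1 cells and 3015 ± 219 CPM in naive cells, and at 415 ± 43.95 CPM in TGF-β1 cells and 1716 ± 121 CPM in naive cells (SD, n = 6 and 3). KRT7 measured 42.8, 54.1 and 59.95 CPM in TGF-β1 cells, against 116, 133 and 124 CPM in naive cells (log2 fold change -1.20 ± 0.09, edgeR adjusted p = 3.6e-13). These 4 keratins of simple epithelium fell, and KRT17, a keratin of wounds and basal cells, rose, with 804, 893 and 988 CPM in TGF-β1 cells, against 68.1, 79.9 and 74.4 CPM in naive cells (log2 fold change 3.66 ± 0.10, edgeR adjusted p = 2.2e-25). KRT80 rose by 2.24 ± 0.12. KRT6A and KRT81 also passed higher, but both have near-identical paralogs between which reads could be split, so their values are uncertain.

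Membrane proteins and protease inhibitors of epithelia were higher in 2 and lower in 11 of 16 tested (median -1.16). ERBB3, a receptor kinase of the EGFR family, measured 3.14, 6.47 and 9.04 CPM in TGF-β1 cells, against 356, 352 and 347 CPM in naive cells (log2 fold change -5.79 ± 0.14, edgeR adjusted p = 2.9e-27). MAL2, of apical transport, measured 2.91, 5.10 and 7.33 CPM in TGF-β1 cells, against 89.1, 91.5 and 93.4 CPM in naive cells (log2 fold change -4.11 ± 0.16, edgeR adjusted p = 1.3e-21). SPINT1, an inhibitor of matriptase, stood at 33.9 ± 2.36 CPM in TGF-β1 cells and 169 ± 18.02 CPM in naive cells (SD, n = 6 and 3; log2 fold change -2.26 ± 0.10, edgeR adjusted p = 1.3e-19). The 2 higher genes were CD24, with 139, 154 and 169 CPM in TGF-β1 cells, against 9.67, 8.32 and 7.30 CPM in naive cells, and CEACAM6, at 12.8 ± 5.66 CPM in TGF-β1 cells and 5.87 ± 0.459 CPM in naive cells (SD, n = 6 and 3), whose arms overlapped and which did not pass in the high gate alone (edgeR adjusted p = 0.12).

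Markers of mesenchymal cells were higher in 24 and lower in 1 of 25 tested, with a median log2 fold change of 3.58. VIM, vimentin, measured 1314, 1488 and 1607 CPM in TGF-β1 cells, against 142, 174 and 148 CPM in naive cells (log2 fold change 3.33 ± 0.11, edgeR adjusted p = 3.6e-23). CALD1, caldesmon, measured 1868, 1931 and 2006 CPM in TGF-β1 cells, against 127, 93.2 and 112 CPM in naive cells (log2 fold change 4.19 ± 0.11, edgeR adjusted p = 1.5e-26). FAP, fibroblast activation protein, measured 89.8, 106 and 126 CPM in TGF-β1 cells, against 0.841, 0.832 and 0.151 CPM in naive cells (log2 fold change 8.20 ± 0.28, edgeR adjusted p = 3.8e-23). LUM, lumican, with 3 naive counts, was 265-fold higher in TGF-β1 cells (exact 95% counting interval 90.4 to 1289.7). None of these arms overlapped. The member that passed lower was S100A4, at 1.64 ± 0.732 CPM in TGF-β1 cells and 3.65 ± 0.631 CPM in naive cells (SD, n = 6 and 3; edgeR adjusted p = 0.015), and it did not pass without naive library C (edgeR adjusted p = 0.0859) or in the low gate alone (edgeR adjusted p = 0.17). CD44, a hyaluronan receptor often named with this state, stood at 513 ± 25.6 CPM in TGF-β1 cells and 524 ± 3.58 CPM in naive cells (SD, n = 6 and 3) and did not pass. Markers of fibroblasts moved with this group and the next ones: 7 of 14 were tested and all 7 rose. They ran from MFAP5 at 3.02 to FAP at 8.20 on the log2 scale. The list summed to 235 to 278 CPM in TGF-β1 libraries and 4.16 to 6.48 CPM in naive libraries. At such naive levels a member could hardly pass the filter on low counts except through treated libraries. That all 7 rose was thus largely set by the filter and is no separate result for this list. Of its other members FOXF1 had 0 counts, and THY1, DPT, TCF21 and PI16 had means of 0.307, 0.297, 0.266 and 0.1004 CPM in TGF-β1 cells. The part of other cells in these results was not tested, and in bulk RNA fewer cells of a kind and less RNA per cell cannot be told apart.

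Collagens were higher in 23 and lower in 2 of 26 tested, with a median log2 fold change of 3.34. COL1A1, the α1 chain of type I collagen (chr17:50183289-50201632, minus strand), measured 3271, 3736 and 4328 CPM in TGF-β1 cells, against 12.6, 10.4 and 6.85 CPM in naive cells (log2 fold change 8.83 ± 0.15, edgeR adjusted p = 2.9e-31). Its partner chain COL1A2 had too few counts to be tested, at 2.16 ± 1.20 CPM in TGF-β1 cells and 0.176 ± 0.304 CPM in naive cells (SD, n = 6 and 3). COL4A1 and COL4A2, of basement membranes, measured 3035, 3188 and 3480.1 CPM in TGF-β1 cells, against 216, 204 and 199 CPM in naive cells for the first (log2 fold change 4.04 ± 0.09, edgeR adjusted p = 3.5e-28), and rose by 3.31 ± 0.09 for the second. COL12A1, a fibril-associated collagen, rose by 6.63 ± 0.15, and COL3A1, with 1 naive count, was 306-fold higher in TGF-β1 cells (exact 95% counting interval 54.4 to 12134). The 2 that fell were COL5A3 (log2 fold change -4.86 ± 0.26, edgeR adjusted p = 9.1e-18) and COL25A1 (log2 fold change -2.51 ± 0.41, edgeR adjusted p = 2.1e-06). Of the enzymes and chaperones that modify collagen 15 were higher and 2 lower among 19 tested, with a median log2 fold change of 1.47: the prolyl hydroxylase subunit P4HA3 rose by 7.99 ± 0.26, the lysyl hydroxylase PLOD2 by 3.53 ± 0.13 and the collagen chaperone SERPINH1 by 2.01 ± 0.13. TGM2, a cross-linking transglutaminase, did not pass.

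Other matrix proteins were higher in 28 and lower in 9 of 41 tested, with a median log2 fold change of 2.15. IGFBP7, an insulin-like growth factor binding protein of the matrix, measured 765, 840.1 and 953 CPM in TGF-β1 cells, against 0.841, 2.91 and 1.13 CPM in naive cells (log2 fold change 9.32 ± 0.19, edgeR adjusted p = 2.1e-29). IGFBP3, of the same family, measured 194, 233 and 279 CPM in TGF-β1 cells, against 1106, 1290.1 and 1144 CPM in naive cells (log2 fold change -2.27 ± 0.07, edgeR adjusted p = 1.7e-23). The 2 binding proteins thus moved in opposite directions, each without overlap. NID2, a nidogen of basement membranes, and SDC2, a cell surface proteoglycan, fell by 1.44 and 2.13 on the log2 scale. Of the laminins 6 were higher and 4 lower among 11 tested, with a median log2 fold change of 0.75. LAMB3, the β3 chain, rose by 0.75 ± 0.08, and LAMA3, the α3 chain, did not pass (55.4 ± 12.05 CPM in TGF-β1 cells and 64.1 ± 3.42 CPM in naive cells, SD, n = 6 and 3). LAMA4 fell by 2.16.

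Integrins, the receptors for this matrix, were higher in 14 and lower in 2 of 18 tested (median 1.80). ITGA5, the fibronectin receptor chain, measured 340.3, 358 and 403 CPM in TGF-β1 cells, against 29.4, 26.6 and 24.4 CPM in naive cells (log2 fold change 3.88 ± 0.12, edgeR adjusted p = 1.3e-24). ITGA11, a collagen receptor chain, measured 171, 193 and 219 CPM in TGF-β1 cells, against 1.68, 0.416 and 0.753 CPM in naive cells (log2 fold change 7.87 ± 0.23, edgeR adjusted p = 6.5e-25). ITGA2 rose by 3.92 ± 0.14 and ITGA8 by 5.21 ± 0.21, and the 2 lower ones were the β4 and β8 chains given above. Metalloproteinases and genes of the plasminogen system were higher in 29 and lower in 1 of 35 tested (median 2.28). ADAMTS6 rose by 7.64 ± 0.17 and SERPINE2, protease nexin 1, by 5.39 ± 0.14; MMP15 was the member that fell (log2 fold change -2.31 ± 0.18, edgeR adjusted p = 4.3e-13), and the sheddases ADAM10 and ADAM17 did not pass.

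Genes of the contractile actin cytoskeleton were higher in 30 and lower in 3 of 33 tested (median 2.31). MYL9, a myosin light chain, measured 196, 226 and 260.4 CPM in TGF-β1 cells, against 6.31, 6.65 and 3.69 CPM in naive cells (log2 fold change 5.68 ± 0.16, edgeR adjusted p = 5.5e-25). ACTN1, α-actinin 1, measured 1032, 1069 and 1189 CPM in TGF-β1 cells, against 103, 94.0 and 89.3 CPM in naive cells (log2 fold change 3.59 ± 0.10, edgeR adjusted p = 5.6e-26). TPM2, tropomyosin β, rose by 3.78 ± 0.10. MYLK, myosin light chain kinase, fell by 2.11, and MYH14, a nonmuscle myosin heavy chain, fell too. Targets of YAP and TEAD, which respond to cell tension, were higher in 22 and lower in 1 of 23 tested (median 1.66). This list shares members with those above, CCN1, CCN2, TGFB2 and IGFBP3 among them. Other lists overlap too, with MMP2 counted among both mesenchymal markers and metalloproteinases, so their counts are not separate results. CCN1 measured 381, 407 and 458 CPM in TGF-β1 cells, against 11.8, 9.57 and 11.7 CPM in naive cells (log2 fold change 5.25 ± 0.12, edgeR adjusted p = 2.4e-27). NT5E, CD73, an enzyme that makes adenosine, rose by 5.28 ± 0.16, and IGFBP3 was the member that fell.

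**Figure D3:**
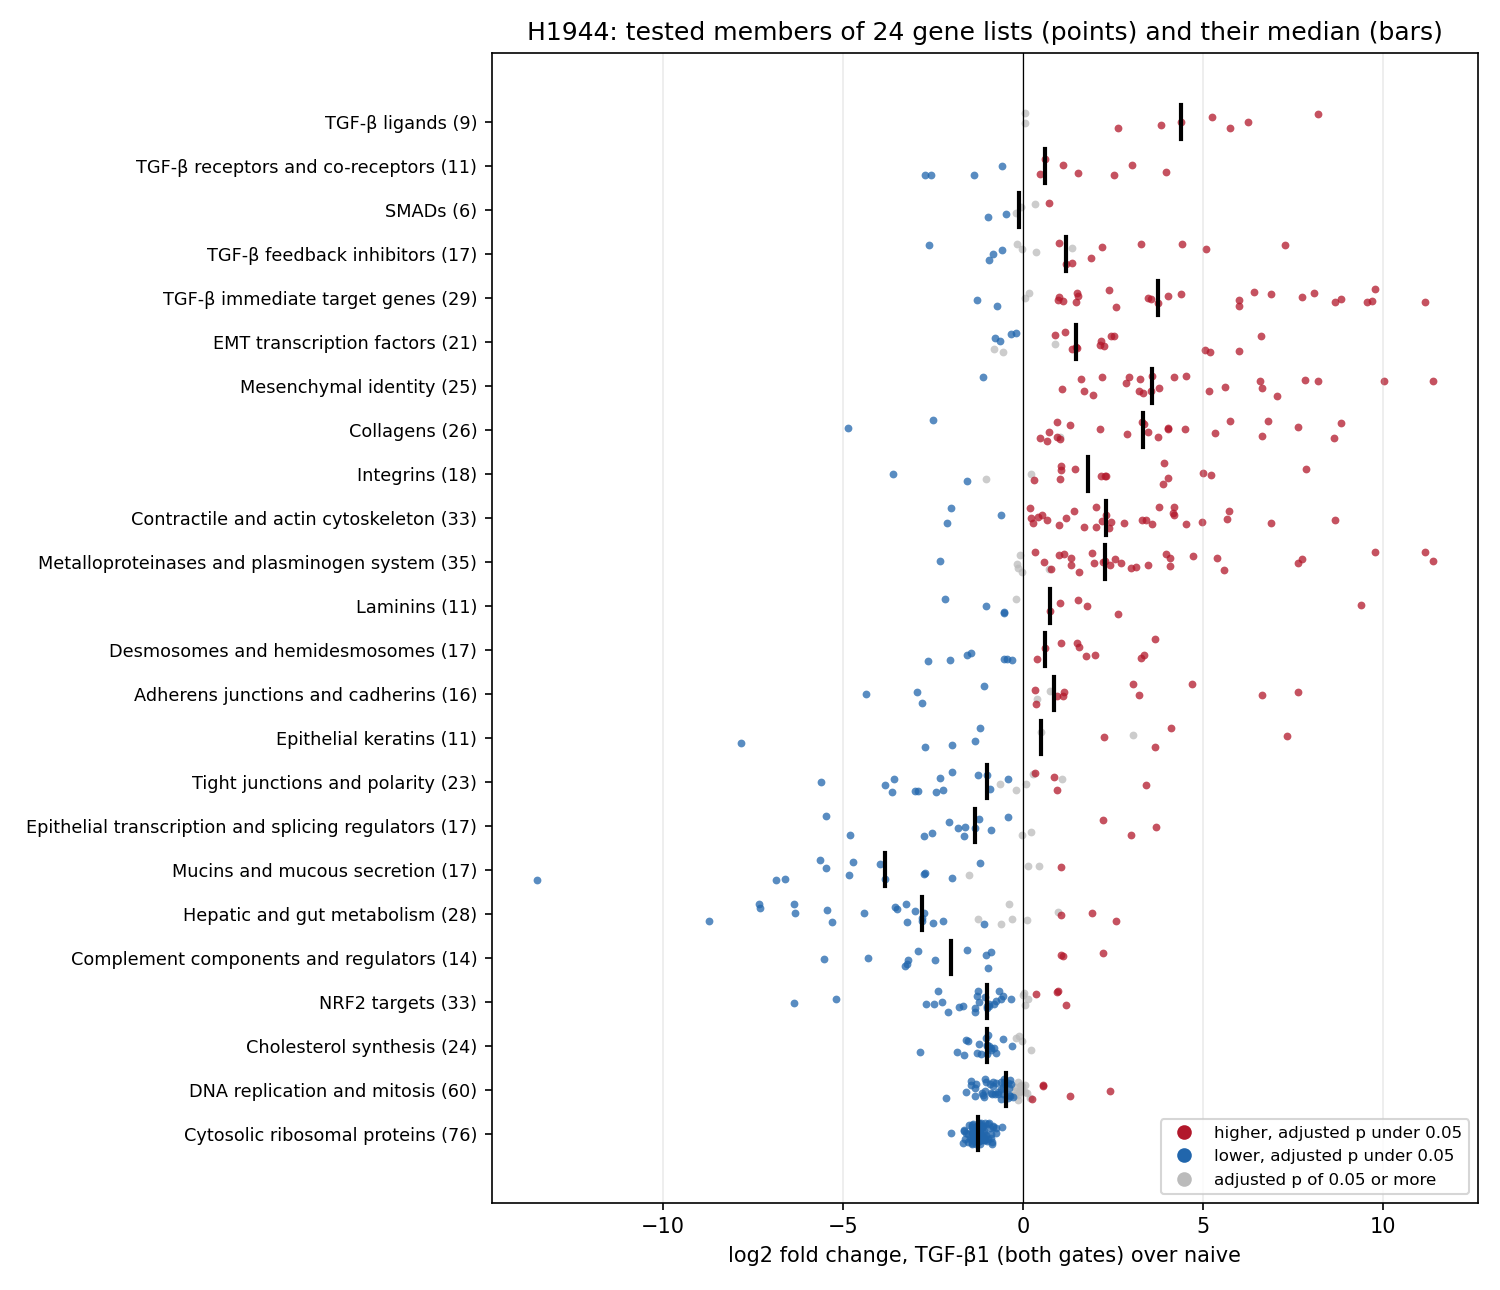
Log2 fold change of TGF-β1 over naive H1944 cells (x axis) for the tested members of 24 gene lists (rows), 1 point per gene, with a bar at each list's median. Medians run from above 3 for TGF-β ligands, collagens and mesenchymal genes to below -2 for mucins and hepatic and gut genes, beside -0.01 for all tested genes.

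Receptor kinases were higher in 17 and lower in 8 of 34 tested (median 0.85), and growth factors higher in 22 and lower in 7 of 34 (median 1.83). EGFR measured 359, 396 and 437 CPM in TGF-β1 cells, against 69.4, 56.1 and 53.8 CPM in naive cells (log2 fold change 2.82 ± 0.13, edgeR adjusted p = 7.2e-20), while its relative ERBB3, given above, fell. FGFR3 measured 1.81, 4.12 and 5.44 CPM in TGF-β1 cells, against 164, 157 and 141 CPM in naive cells (log2 fold change -5.12 ± 0.18, edgeR adjusted p = 8.1e-23), and FGFR4 fell by 2.72. ROS1, an orphan kinase known as a fusion oncogene in lung cancer, measured 49.4, 75.97 and 114 CPM in TGF-β1 cells, against 1.26, 1.25 and 0.452 CPM in naive cells (log2 fold change 6.84 ± 0.29, edgeR adjusted p = 2.6e-20). NRG1, a ligand of ERBB3, rose by 2.80 ± 0.12 and VEGFA by 1.67 ± 0.09; EGF and VEGFC fell by 1.87 and 1.60. DKK1, a Wnt antagonist, had 1 naive count and was 211-fold higher in TGF-β1 cells (exact 95% counting interval 37.4 to 8381). Cues of axon guidance were higher in 19 and lower in 9 of 30 tested (median 1.57): the semaphorins SEMA3A and SEMA3C rose by 4.34 ± 0.16 and 4.58 ± 0.13, and SEMA5A and SEMA3B fell by 5.41 and 3.64.

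Secreted products of the naive line were mostly lower in TGF-β1 cells. Of mucins and genes of mucous secretion 1 was higher and 13 lower among 17 tested, with a median log2 fold change of -3.83; the higher one was CEACAM6. AGR2, a protein disulfide isomerase needed for mucin folding, measured 0, 0.698 and 3.01 CPM in TGF-β1 cells, against 108, 111 and 121 CPM in naive cells (log2 fold change -6.60 ± 0.22, edgeR adjusted p = 3.4e-23). MUC16 measured 25.4, 42.7 and 71.1 CPM in TGF-β1 cells, against 308, 254 and 312 CPM in naive cells (log2 fold change -2.71 ± 0.11, edgeR adjusted p = 4.4e-21), and MUC13 fell by 1.98. SLPI, an antiprotease of airway fluid, stood at 3.59 ± 1.49 CPM in TGF-β1 cells and 57.9 ± 17.7 CPM in naive cells (SD, n = 6 and 3). H1944 also expressed genes best known from liver and gut, and of these 3 were higher and 19 lower among 28 tested (median -2.80). The fibrinogen chain FGA measured 0.833, 2.29 and 6.41 CPM in TGF-β1 cells, against 404, 423 and 407 CPM in naive cells (log2 fold change -7.34 ± 0.14, edgeR adjusted p = 2.4e-30). CPS1, the urea cycle enzyme carbamoyl phosphate synthetase, measured 214, 279 and 369 CPM in TGF-β1 cells, against 3299, 3399 and 3609 CPM in naive cells (log2 fold change -3.51 ± 0.07, edgeR adjusted p = 1.0e-28). CYP24A1, which breaks down vitamin D, was among the 3 that rose, by 1.06 ± 0.09. Of alveolar and airway genes 2 were higher and 4 lower among 9 tested (median -0.33), with HOPX at 1.01 ± 0.786 CPM in TGF-β1 cells and 17.2 ± 2.07 CPM in naive cells (SD, n = 6 and 3) and CAV1, caveolin 1, higher by 2.85 ± 0.17. S100 genes were higher in 4 and lower in 6 of 11 tested (median -0.58); S100A9, the partner of S100A8, measured 1.25, 2.88 and 4.70 CPM in TGF-β1 cells, against 654, 748 and 688 CPM in naive cells (log2 fold change -7.87 ± 0.13, edgeR adjusted p = 1.1e-31), and S100P fell by 5.44.

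Genes of immunity moved in different directions. Complement genes were higher in 3 and lower in 11 of 14 tested (median -2.00). C3, the central component, measured 29.8, 37.3 and 43.9 CPM in TGF-β1 cells, against 1819, 1874 and 1708 CPM in naive cells (log2 fold change -5.54 ± 0.09, edgeR adjusted p = 2.3e-32). CD59, the membrane inhibitor of lysis, rose by 2.21 ± 0.12. Genes of MHC class I presentation were higher in 11 and lower in 5 of 21 tested (median 0.22); B2M, the shared light chain, rose by 1.33 ± 0.11, and the proteasome activators PSME1 and PSME2 fell by 0.99 and 0.87. Both MHC class II genes tested, HLA-DMA and HLA-DMB, which load peptides, fell (log2 fold change -6.32 ± 0.26, edgeR adjusted p = 6.2e-21 for HLA-DMB). Interferon-stimulated genes were higher in 16 and lower in 14 of 37 tested (median -0.11): GBP1 rose by 3.13 ± 0.16 and IFI44 by 3.24 ± 0.23, while OAS1 and IFITM3 fell by 1.90 and 1.91. Cytokines and chemokines were higher in 14 and lower in 2 of 20 tested (median 1.30), or higher in 9 without naive library C. CXCL8, a neutrophil attractant, measured 167, 207 and 254 CPM in TGF-β1 cells, against 3.78, 4.57 and 3.24 CPM in naive cells (log2 fold change 5.91 ± 0.36, edgeR adjusted p = 4.0e-16). IL6 rose by 2.27 ± 0.18, and CXCL16 fell by 3.58.

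Genes of the cell cycle and of ribosomes were mostly lower. Of genes of DNA replication and mitosis 5 were higher and 38 lower among 60 tested, with a median of -0.46. The MCM helicase subunit MCM2 measured 39.2, 42.7 and 53.5 CPM in TGF-β1 cells, against 125, 132 and 124 CPM in naive cells (log2 fold change -1.43 ± 0.10, edgeR adjusted p = 3.5e-14). MKI67, the proliferation marker Ki-67, stood at 622 ± 26.6 CPM in TGF-β1 cells and 687 ± 67.6 CPM in naive cells (SD, n = 6 and 3) and did not pass (edgeR adjusted p = 0.42). CCND1, cyclin D1, rose by 2.43 ± 0.11. Cell-cycle inhibitors and genes of senescence, taken as 1 list, were higher in 4 and lower in 3 of 14 tested (median -0.03). Of the inhibitors CDKN1B, p27, was lower by 1.12. All 76 proteins of the cytosolic ribosome tested were lower (median -1.24), RPL3 among them with 598, 636 and 676 CPM in TGF-β1 cells, against 1980.3, 2260.4 and 2026 CPM in naive cells (log2 fold change -1.65 ± 0.07, edgeR adjusted p = 1.7e-20). Mitochondrially encoded genes were higher in 0 and lower in 11 of 13 tested (median -0.49).

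Metabolic lists were mainly lower. Targets of NRF2, a sensor of oxidative stress, were higher in 4 and lower in 25 of 33 tested (median -1.004). GPX2, a glutathione peroxidase, measured 3.14, 4.26 and 8.25 CPM in TGF-β1 cells, against 391, 426 and 395 CPM in naive cells (log2 fold change -6.36 ± 0.14, edgeR adjusted p = 2.3e-28). AKR1B10, an aldo-keto reductase, measured 578, 642 and 689 CPM in TGF-β1 cells, against 3443, 4098 and 3722 CPM in naive cells (log2 fold change -2.48 ± 0.07, edgeR adjusted p = 1.4e-25). SLC7A11, the cystine transporter, was among those that rose, by 0.96 ± 0.09. Cholesterol synthesis genes were higher in 0 and lower in 20 of 24 tested (median -0.99). Genes of glycolysis and hypoxia were higher in 10 and lower in 12 of 27 tested (median -0.24), PFKFB3 higher by 2.56 ± 0.11 and CA12, a carbonic anhydrase, lower by 2.07. Genes of the unfolded protein response and the secretory pathway were higher in 12 and lower in 6 of 23 tested (median 0.21), although 6 were higher in the fit of all 28 libraries. XBP1, a factor of that response, fell by 1.16, and the COPII coat protein SEC24D rose by 1.07 ± 0.11.

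Of PRC2 subunits and H3K27 demethylases 2 were higher and 3 lower among 14 tested (median 0.03). JARID2, a PRC2 cofactor, rose by 2.40 ± 0.11 and KDM6B, a demethylase, by 2.24 ± 0.13. EZH2, the target of GSK126, measured 46.2, 48.6 and 51.6 CPM in TGF-β1 cells, against 60.5, 52.4 and 61.4 CPM in naive cells and did not pass (edgeR adjusted p = 0.081), although its arms did not overlap. EZH1 fell by 1.38. HOX genes were higher in 8 and lower in 5 of 25 tested (median 0.12), HOXB7 and HOXC9 higher by 0.69 ± 0.15 and 0.81 ± 0.15 and HOXA3 lower by 1.29. Immediate-early genes and those that respond to cell handling were higher in 12 and lower in 10 of 29 tested (median 0.18). FOSB rose by 4.09 ± 0.19 and JUN by 2.42 ± 0.11; NR4A1 measured 28.3, 46.0 and 73.3 CPM in TGF-β1 cells, against 422, 433 and 448 CPM in naive cells (log2 fold change -3.09 ± 0.12, edgeR adjusted p = 4.7e-21), and EGR1 fell by 1.18. Only TGF-β1 cells were sorted in this comparison, and the part of handling in these values was not tested.

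Among host transcripts of microRNAs 7 were higher and 3 lower of 13 tested (median 0.66). Mature microRNAs of 5 hosts that passed are shown because those of a seed family share bases 2 to 8, in capitals. They are RefSeq sequences on GRCh38.p14, and their own levels were not measured by this assay. MIR29B2CHG (chr1:207801518-207879096, minus strand) carries miR-29b and miR-29c, which are known to act on collagen and other matrix transcripts, and it fell, with 6.34, 9.07 and 13.25 CPM in TGF-β1 cells, against 33.2, 28.3 and 39.5 CPM in naive cells (log2 fold change -1.91 ± 0.17, edgeR adjusted p = 1.0e-11). MIR181A1HG (chr1:198807493-198937429, minus strand) measured 42.6, 51.0 and 56.2 CPM in TGF-β1 cells, against 5.46, 3.33 and 4.67 CPM in naive cells (log2 fold change 3.51 ± 0.19, edgeR adjusted p = 3.2e-17), and MIR181A2HG (chr9:124658467-124698631, plus strand), with 1 naive count, was 97.5-fold higher in TGF-β1 cells (exact 95% counting interval 16.99 to 3898); each carries miR-181a and miR-181b. MIR222HG, which carries miR-221 and miR-222, rose by 1.51 ± 0.23, and MIR17HG, which carries miR-17 and miR-20a, fell by 1.18.
hsa-miR-29b-3p: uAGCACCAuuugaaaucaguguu
hsa-miR-29c-3p: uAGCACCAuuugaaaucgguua
hsa-miR-181a-5p: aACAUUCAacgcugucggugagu
hsa-miR-181b-5p: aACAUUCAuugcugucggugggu
hsa-miR-221-3p: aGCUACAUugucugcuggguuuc
hsa-miR-222-3p: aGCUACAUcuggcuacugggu
hsa-miR-17-5p: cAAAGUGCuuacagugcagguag
hsa-miR-20a-5p: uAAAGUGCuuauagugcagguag
The host of miR-200c, MIR200CHG, whose microRNAs are known to target ZEB1, had 1 count in TGF-β1 cells and 14 in naive cells and was too low to be tested. H19, an imprinted noncoding RNA, had 0 counts in TGF-β1 cells, against 12.2, 10.4 and 10.6 CPM in naive cells, at least 52.7-fold lower by the floor of 3 counts. LINC02725, a long noncoding RNA, was at least 104-fold higher by the same floor. All 20 snoRNA genes past the test, of 31 tested, were lower.

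Markers of the labelled cell type and of other cells were checked beside these results. Of 12 markers of lung adenocarcinoma lines 10 were tested and all 10 were lower in TGF-β1 cells (summed level 1525 to 1772 CPM in TGF-β1 libraries and 5164 to 5805 CPM in naive libraries). NKX2-1 and NAPSA, defining markers of many lung adenocarcinomas, were near 0 in both groups and not tested (0.239 and 0.779 CPM in TGF-β1 cells, 0.0251 and 1.02 CPM in naive cells). Of 12 immune markers 1 was tested, CSF1R, which rose by 3.30 ± 0.69; PTPRC, the shared leukocyte marker, stood at 1.499 CPM in TGF-β1 cells and 0.811 CPM in naive cells, CD3D was at 0 in TGF-β1 cells, and the list summed to 6.34 to 15.1 CPM in TGF-β1 libraries and 3.33 to 5.50 CPM in naive libraries. Of 10 endothelial markers ESAM rose, PECAM1 and EGFL7 fell and 7 were not tested, with sums of 24.3 to 38.6 CPM in TGF-β1 libraries and 47.9 to 54.9 CPM in naive libraries. Of 8 basal and squamous markers TP63, DSG3 and KRT6A rose, KRT5 and KRT14 were too low to be tested and SPRR1A had 0 counts, with sums of 35.0 to 49.5 CPM in TGF-β1 libraries and 1.26 to 4.37 CPM in naive libraries. The immune and basal lists were also so low in naive libraries that members could hardly pass the filter on low counts there. The rise of the members tested from these 2 lists was thus largely set by the filter. The part of immune, endothelial and basal cells in the results was not tested.

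A comparison in which both arms were sorted is that of TGF-β1 with GSK126 cells of the same line, 6 libraries each. The GSK126 arm is also the mean of 2 gates, with mVenus at 209 to 280 CPM in the low gate and 808 to 906 CPM in the high gate. An SD over its 6 libraries holds the difference between these gates as well. Here 8685 of 13621 genes passed (63.8%), 4312 higher in TGF-β1 cells (31.7%) and 4373 lower (32.1%). MMP2 was 1358 ± 169.5 CPM in TGF-β1 cells and 7.07 ± 3.37 CPM in GSK126 cells (SD, n = 6 each; log2 difference 7.90 ± 0.10, edgeR adjusted p = 1.1e-34). COL1A1 was 3748 ± 421 CPM in TGF-β1 cells and 51.8 ± 18.997 CPM in GSK126 cells (log2 difference 6.43 ± 0.09, edgeR adjusted p = 2.4e-33). PMEPA1 was 1205 ± 78.0 CPM in TGF-β1 cells and 64.4 ± 22.96 CPM in GSK126 cells (log2 difference 4.46 ± 0.09, edgeR adjusted p = 8.3e-29). These 3 genes were higher in TGF-β1 cells than in GSK126 cells. KANK4, a scaffold of the actin cortex, was the gene furthest above GSK126 cells among those named by the rule (log2 difference 9.38 ± 0.29, edgeR adjusted p = 4.0e-23), and MUC5B the furthest below (-11.06 ± 0.20, edgeR adjusted p = 1.4e-30). With the few MUC5B counts in TGF-β1 cells given above, its standard error understates the uncertainty. Set side by side against the naive libraries that both comparisons share, the log2 fold changes were 3.96 under TGF-β1 and 1.36 under GSK126 for TGFBR1, 2.25 and -0.42 for ZEB1, -4.36 and -1.64 for CDH1, 6.63 and 5.12 for COL12A1, and -1.42 and -3.80 for FBN1. Some genes differed little between the treatments: KRT80 (log2 difference -0.03 ± 0.08, edgeR adjusted p = 0.76) and NDRG1 (0.01 ± 0.09, edgeR adjusted p = 0.93) did not pass, which does not show that they are equal.

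The 2 mVenus gates of TGF-β1 cells were close to each other. Leaving out mVenus itself, which set the gates, 8 of 13621 genes passed between them (0.0587%), 2 higher (0.0147%) and 6 lower (0.044%) in the high gate. IL11 measured 104, 77.5 and 78.2 CPM in the high gate, against 48.3, 51.2 and 48.6 CPM in the low gate (log2 difference 0.83 ± 0.15, edgeR adjusted p = 0.014). It stood higher in every library of the high gate. Of the fibrinogen chains, FGB and FGG were lower in the high gate: FGB measured 4.98, 2.91 and 5.50 CPM in the high gate, against 18.02, 9.64 and 13.7 CPM in the low gate (log2 difference -1.67 ± 0.32, edgeR adjusted p = 0.023), and FGG differed by -2.04 ± 0.41. The third chain, FGA, did not pass (log2 difference -1.80 ± 0.43, edgeR adjusted p = 0.17). CEACAM5 and CEACAM6, adhesion molecules of epithelial surfaces, differed by -1.60 ± 0.29 and -1.16 ± 0.23, and MUC16 and CPS1 by -0.79 ± 0.16 and -0.48 ± 0.09. CDH1 measured 10.9, 7.08 and 9.43 CPM in the high gate, against 18.02, 18.7 and 15.3 CPM in the low gate and did not pass (log2 difference -0.90 ± 0.21, edgeR adjusted p = 0.14), although the gates did not overlap. The number that passed was between 0 and 3 when any of the 6 libraries was left out, with 578 to 879 genes at an unadjusted p under 0.05, so these 8 calls rest on all of them; DESeq2 called 11 and limma-voom 13.

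**Figure D4:**
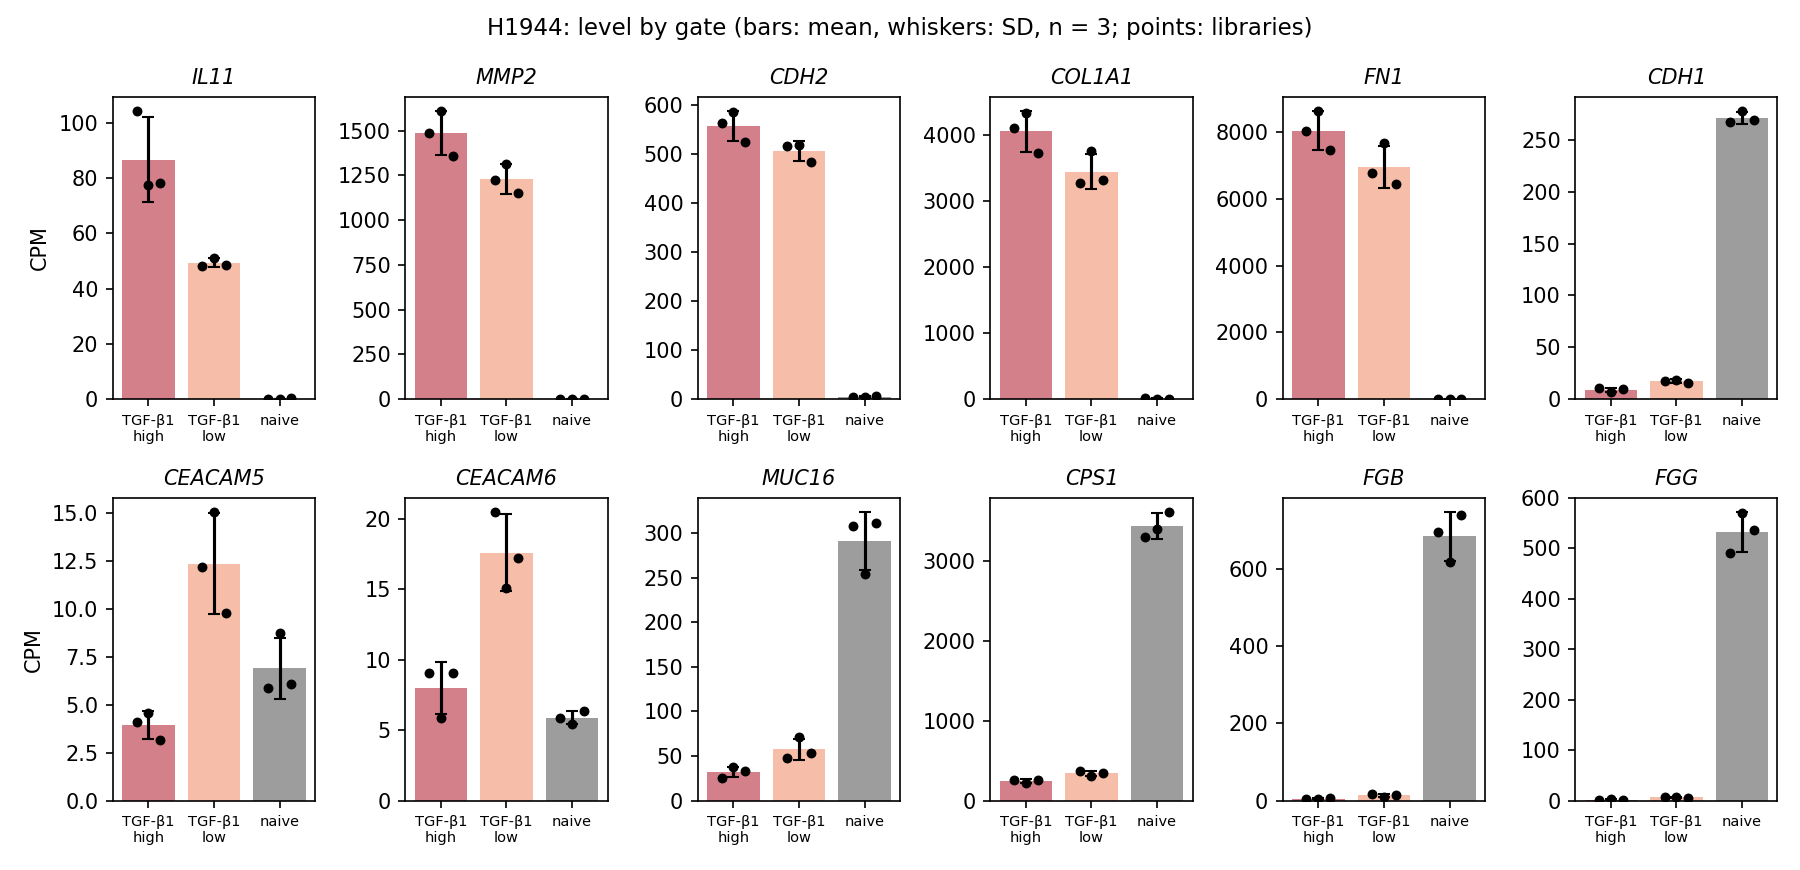
Level in CPM (y axis) of 12 genes in the high and low mVenus gates of TGF-β1 cells and in naive cells, with bars at the mean, error bars of 1 SD (n = 3) and a point per library. IL11 stands higher in the high gate, FGB, FGG, CEACAM5, CEACAM6, MUC16 and CPS1 lower, and the gates of COL1A1 and FN1 lie close together beside their distance from naive cells.

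The same treatment was compared with its effect in A549, with 5 treated and 3 naive libraries, by a test of the difference between the lines. Of 17918 genes 3862 passed (21.6%), 2103 with a higher effect in H1944 (11.7%) and 1759 with a lower one (9.82%). The test comes from a joint fit of both lines, as do the A549 values, and the H1944 values are those given above. In the joint fit 7852 genes passed in H1944 and 5637 in A549. Of the 3862, 876 moved in the same direction with the larger change in H1944, 268 in the same direction with the larger change in A549, and 340 in opposite directions. Another 1682 passed in H1944 and not in A549, 621 in A549 and not in H1944, and 75 in neither. FN1 rose by 10.02 in H1944 and 2.57 in A549 on the log2 scale (difference 7.42 ± 0.28, edgeR adjusted p = 1.0e-17); A549 cells averaged 1455 CPM under TGF-β1 and 234 CPM when naive, so the lines differ in their naive level. TGFB2 rose by 5.74 in H1944, against -0.05 in A549 (difference 5.75 ± 0.29, edgeR adjusted p = 6.1e-15). CDH2 rose by 6.65 in H1944, against 2.61 in A549 (difference 4.04 ± 0.24, edgeR adjusted p = 2.7e-13). The larger effects in H1944 thus included a ligand and N-cadherin. CDH1 fell in both lines, by 4.36 in H1944 with a log2 fold change of -4.24 in A549, and the difference did not pass (-0.17 ± 0.44, edgeR adjusted p = 0.85). Effects in opposite directions were seen for FBN1 (-1.42 in H1944 and 2.07 in A549, difference -3.53 ± 0.17, edgeR adjusted p = 1.1e-15) and KRT7 (-1.20 and 0.73, difference -1.97 ± 0.19, edgeR adjusted p = 5.9e-09). DKK1 had log2 fold changes of 7.05 in H1944 and -2.89 in A549 (difference 9.99 ± 0.75, edgeR adjusted p = 3.1e-11). With so few naive H1944 counts of DKK1, given above, its standard error understates the uncertainty. COL4A1 is a case of the larger change in A549, 6.02 against 4.04 in H1944 (difference -2.03 ± 0.18, edgeR adjusted p = 1.2e-09). Background reads over olfactory receptor genes were high in 2 of the A549 libraries, 305 CPM in high gate library B under TGF-β1 and 195 CPM in naive library A, and the number past the test was 4404 and 4008 without each.

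**Figure D5:**
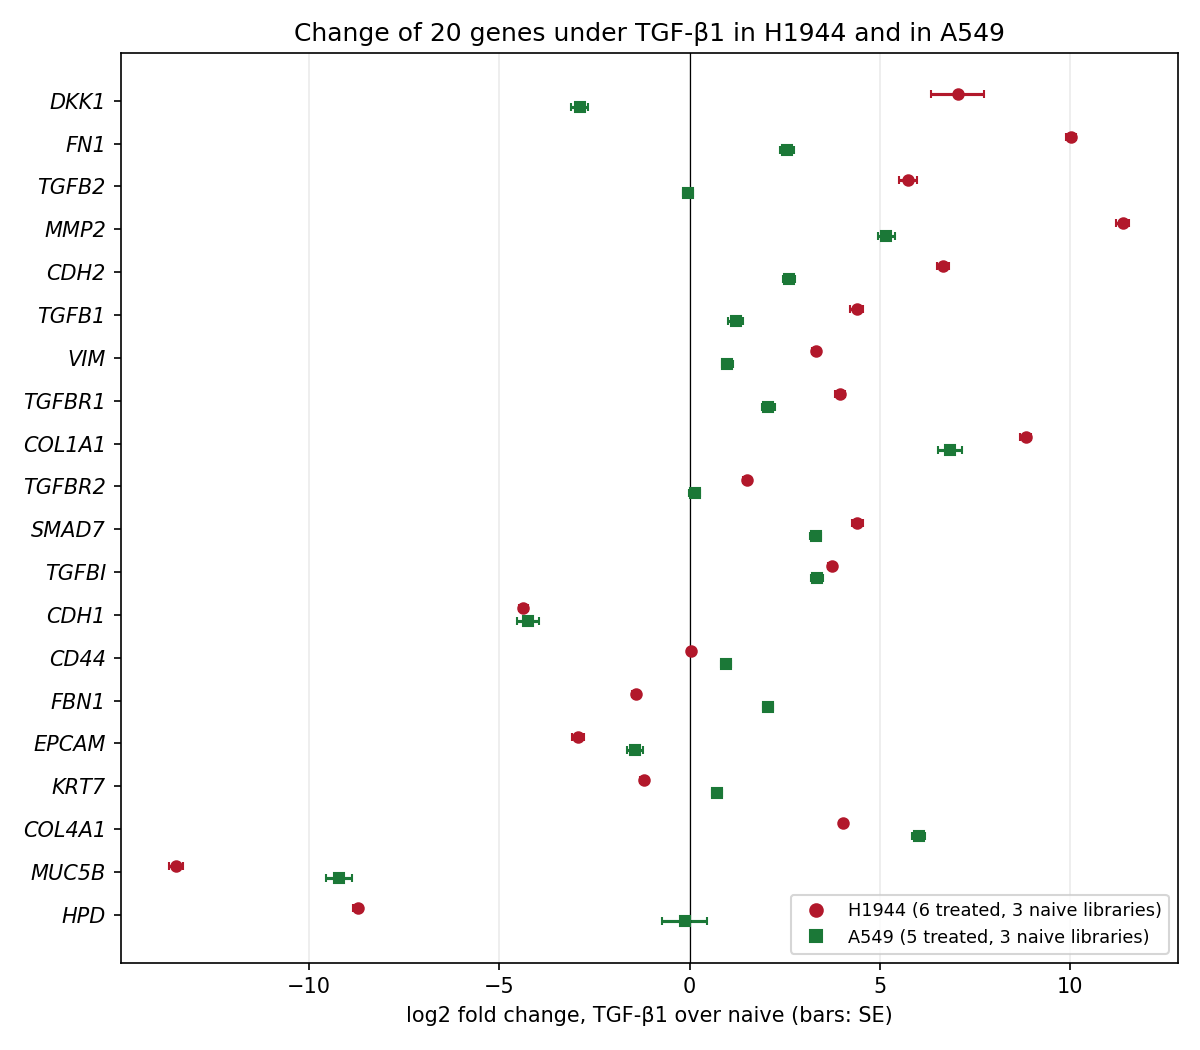
Log2 fold change of TGF-β1 over naive cells (x axis) of 20 genes (rows) in H1944 (circles) and A549 (squares), with error bars of 1 approximate standard error. DKK1, FN1, TGFB2, MMP2 and CDH2 lie higher in H1944, CDH1 has nearly the same value in both lines, and FBN1 and KRT7 fall in H1944 and lie above 0 in A549.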

How the data were processed

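The authors deposited 1 table of whole-number counts per gene and library. Per the submitters' processing notes, the tools were bcl2fastq 2.20.0, STAR 2.6.0c and HTSeq 0.12.3, and the build was GRCh38. A SMARTer stranded low-input kit made the libraries from 10 ng of RNA, per the labels' protocols. No source gives the strand setting of the counting, so overlapping and antisense genes are uncertain, as are near-identical paralogs. Of 60487 rows 60483 carried Ensembl identifiers, of which 56321 had a symbol, and 4 were reporter sequences; mVenus was fitted with the genes but not counted among them. Coordinates are GRCh38 from GENCODE 29, and printed sequences are RefSeq's on GRCh38.p14.

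CPM values were computed from the deposited counts and library totals. The 15 H1944 libraries were fitted as 5 groups with edgeR 4.0.16 in R 4.3.3 (TMM, edgeR's own filter on low counts, quasi-likelihood F test, Benjamini-Hochberg adjustment over all genes, threshold 0.05), with 10 residual degrees of freedom and a common biological coefficient of variation of 0.0978. Treated cells are the mean of both gates, and an SD over the 6 treated libraries holds the difference between the gates as well. The comparison with A549 came from a fit of all 28 libraries, with a coefficient of 0.212. The test was tried on simulated counts before use. Alternatives were RLE size factors, other filters, DESeq2 1.42.0, limma-voom (limma 3.58.1), other sets of libraries, each gate alone, a block by letter and each library left out; 2 more, the gates of a letter summed and naive library C thinned, were chosen after seeing the data.

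Named genes were, in the main comparison, the 15 highest and 15 lowest protein-coding genes past the test that reached a mean of 5 CPM in an arm without overlap, the 5 members of smallest adjusted p in each direction and the 3 most abundant not past it in each list, 30 key genes, the 6 highest and 6 lowest in each other comparison, and the 5 highest and 5 lowest long noncoding RNAs; those described here are a part of them. COL1A2, MFAP5, NAPSA and the low markers of other cell types were named after their values were seen. Some genes that the rule names are not reported here. Of 1388 entries in 51 lists 1382 matched a row. The members and the lists were chosen with earlier results of these data known. Lists have no test: their counts and medians stand beside those of all genes, and medians did not change with genes at 0 counts set to their bound, which touched 4 lists. With 1 to 3 counts in an arm, the ratio of pooled CPM has an exact 95% interval; on so few counts a standard error understates the uncertainty. Letters are not stated to pair the libraries, so they were not taken as pairs. Same-letter libraries of different groups correlated by -0.109 to 0.105 in their deviations from group means. With 3 libraries per group, these correlations cannot settle whether letters are pairs.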

Additional observations from a re-analysis of the deposited data

Results flagged for a closer look

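The difference between TGF-β1 and naive cells differed between H1944 and A549 by a test of the difference itself for 3862 genes and, among the genes described, for those below, given as the log2 fold change in H1944 minus that in A549. Of genes higher in TGF-β1 than in naive H1944 cells, the difference was 7.42 for FN1, 6.19 for MMP2, 1.88 for COL1A1, 7.83 for COL3A1, 4.04 for CDH2, 2.29 for VIM, 1.20 for ZEB1, 9.99 for DKK1, 9.70 for C5orf46, 8.78 for CMKLR2 and 7.60 for LFNG. Within the pathway it was 3.16 for TGFB1, 5.75 for TGFB2, 1.86 for TGFBR1, 1.34 for TGFBR2 and 1.03 for SMAD7. Of genes lower in TGF-β1 than in naive H1944 cells, it was -4.37 for MUC5B, -12.39 for S100A8, -8.63 for HPD, -7.99 for RARRES1, -9.39 for GPT, -8.60 for KLK10, -8.93 for PRIMA1, -1.54 for EPCAM and -1.97 for KRT7. MKI67 and CD44, which did not pass in H1944, differed by 1.11 and -0.96. Some have at most 3 counts in an arm of H1944, among them MUC5B, DKK1, S100A8, C5orf46, CMKLR2, LFNG, COL3A1, KLK10 and RARRES1. The size of their difference is then uncertain. Each difference also depends on the level in A549, which among these genes is given above only for FN1. From the difference alone, another response in A549 and a gene near background there cannot be told apart. The lines also differed in how many libraries each gate had and in background reads, and the part of this was not tested.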

How the results depend on the processing

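The number of genes past the test of TGF-β1 against naive cells, 8677, ran from 7796 to 9455 over the other alternatives and from 7669 (without naive library C) to 8631 when a library was left out. Against GSK126 the range was 7806 to 9111, and 8364 to 8744 with a library left out. Between the lines it was 2730 to 5517, and 3014 to 4404 with a library left out. The gates moved more: against 8 genes in the main analysis, 0 passed in the fit of all 28 libraries (431 at an unadjusted p under 0.05), 3 with a filter at 1 CPM, 13 without a filter, 13 with limma-voom and 26 when only the groups compared were fitted, and 0 to 3 when a library was left out; the cause was not tested. No named gene reversed its direction past the test. Of 382 named genes past the test 355 passed in the same direction under every alternative.

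With the replicate letter as a block 8652 genes passed against naive cells, 8672 against GSK126, 11 between the gates and 3431 between the lines. The letters are not stated to pair the libraries, and same-letter libraries deviated together weakly or not at all. Between the gates, same-letter correlations were 0.0743, 0.105 and -0.0255 for A, B and C. Gate libraries of different letters correlated by -0.105 to 0.0486.

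Some list counts moved by more than 1.5 times under at least 1 alternative. Of counts of higher genes, the unfolded protein response had 12 and down to 6, cytokines 14 and 9 without naive library C. HOX genes had 8 and 5, DNA replication and mitosis 5 and 3, and cell-cycle inhibitors with senescence genes 4 and 2. Alveolar and airway genes had 2 and 4, epithelial membrane proteins 2 and 1, and endothelial markers 1 and 2. Mucins had 1 and from 0 to 2, and cholesterol synthesis, MHC class II and mitochondrially encoded genes 0 and 1. Of counts of lower genes, HOX genes had 5 and down to 2, transition factors 4 and down to 1, PRC2 genes 3 and from 1 to 5, collagens 2 and 4, collagen processing 2 and 1, mesenchymal markers 1 and 0, and metalloproteinases 1 and 2. In the comparison of the lines, 2103 differences were higher and 1759 lower, against 1386 and 1344 among genes of at least 1 CPM in 3 libraries and 1773 and 1097 with no filter on low counts. EZH2, not past the test, passed lower without a filter (log2 fold change -0.33), with a filter at 1 CPM (-0.29), with limma-voom (-0.22), in the fit of the groups compared (-0.22) and without naive library B (-0.28). At these depths a gene well below 1 CPM in an arm is near the background of reads, and its fold change has a wide interval.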
